A study of Homo sapiens with 45 samples.

Results

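The T-box genes examined here are 10 regulators of mesoderm and limb development: TBXT, EOMES, TBX1, TBX2, TBX3, TBX4, TBX5, TBX15, TBX18 and TBX20. A contact was taken as theirs when both of its fragments lay on 1 chromosome (cis) and either fragment came within 1000 bp of an end of the gene in the RefSeq annotation of GRCh38.p14, and each contact was counted once. This gave 119 of the 152688 cis pairs, out of 434524 pairs listed in all. The pairs belonged to 7 of the 10 genes. TBX2, TBX4 and TBX18 had none, and the nearest captured fragments lay 1490, 4786 and 2038 bp from an end of these genes.

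Contacts were measured by poised-enhancer capture Hi-C in the established human embryonic stem cell line HNES1, harvested on day 5 as cells passed from the naive to the primed state. Cells received UNC6852 at 2.5 µM, which has EED, a subunit of Polycomb repressive complex 2 (PRC2), degraded, or UNC1999 at 1 µM, which inhibits the EZH1 and EZH2 subunits of PRC2, or an equal volume of the solvent DMSO. Addition came 24 h before the naive medium was withdrawn, and all 3 groups then grew in the same N2B27 medium with XAV939, a tankyrase inhibitor that damps WNT signalling. Each group had 15 libraries from 3 biological replicates, 12 with the batch 1 label and 3 with the batch 2 label, and was deposited as 1 pooled column of scores. No spread between replicates, test or sequencing depth is therefore available, both compounds are set against the same DMSO profile, and the compounds are not compared with each other because their doses differ. The assay holds no expression values, so the cell identity and the action of the compounds could not be checked.

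T-box proteins bind DNA through a shared domain and act as activators or repressors that commit cells to mesoderm and to the organs made from it. Most of their genes are silent in pluripotent cells, where PRC2 marks them with trimethylated lysine on histone H3, and poised enhancers of such genes can touch their promoters before either is active. TBXT (brachyury) acts in the primitive streak and notochord, and EOMES in the streak, the endoderm and the early cardiac mesoderm. TBX1 patterns the pharynx and outflow tract, TBX20 the heart chambers, and TBX5 the heart and forelimb. TBX4 acts in the hindlimb and lung, and TBX2 and TBX3 are repressors in heart and limb. TBX15 shapes skeleton and skin, and TBX18 the sinus node and somites.

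A captured fragment lay at the starts of several of these genes. The 250 bases before the start of 4 of them are shown because contacts were read from fragments next to these starts. They come from RefSeq (GRCh38.p14), run 5′ to 3′ on the strand of the gene, and have GATC, the site cut by DpnII in this assay, in capitals.
TBXT, chr6:166168656-166168905, minus strand: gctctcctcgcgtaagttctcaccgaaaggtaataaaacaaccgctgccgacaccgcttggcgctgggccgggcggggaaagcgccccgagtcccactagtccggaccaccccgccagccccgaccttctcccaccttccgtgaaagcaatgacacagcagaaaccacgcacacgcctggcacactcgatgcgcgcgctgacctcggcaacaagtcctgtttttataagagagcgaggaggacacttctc
TBX1, chr22:19756453-19756702, plus strand: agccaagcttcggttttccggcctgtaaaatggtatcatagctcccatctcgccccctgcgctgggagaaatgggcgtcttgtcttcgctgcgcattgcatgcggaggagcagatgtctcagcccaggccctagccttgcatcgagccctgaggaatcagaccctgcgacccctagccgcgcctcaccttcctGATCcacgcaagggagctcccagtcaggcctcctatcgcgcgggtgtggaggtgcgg
TBX20, chr7:35254101-35254350, minus strand: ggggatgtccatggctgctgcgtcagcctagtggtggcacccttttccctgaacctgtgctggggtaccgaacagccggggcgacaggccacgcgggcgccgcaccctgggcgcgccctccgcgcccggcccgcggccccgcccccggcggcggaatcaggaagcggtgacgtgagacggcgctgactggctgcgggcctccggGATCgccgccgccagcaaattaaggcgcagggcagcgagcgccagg
TBX5, chr12:114408443-114408692, minus strand: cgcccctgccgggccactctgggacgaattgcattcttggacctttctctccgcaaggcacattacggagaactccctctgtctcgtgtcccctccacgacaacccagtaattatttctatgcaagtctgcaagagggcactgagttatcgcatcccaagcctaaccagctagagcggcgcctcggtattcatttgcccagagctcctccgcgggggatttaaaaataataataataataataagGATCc
The TBX1 sequence overlapped its captured fragment, chr22:19755984-19756645, and the others lay 440 bp (TBXT), 78 bp (TBX20) and 139 bp (TBX5) from theirs. EOMES has a captured fragment 951 bp from its promoter, which lies inside the annotated gene. RefSeq promoters were found for 7 of the 10 genes, 9 windows of 250 bases before and 50 after a start. These windows held 15 to 38 CpG dinucleotides, against a median of 14 over 35116 promoters. GATC stood in 4 of the 9 windows, against 41.7% of all promoters. The T-box half-site letters GGTGTGA and the letters TATAAA were each searched on both strands. GGTGTGA stood in 0 of the 9, against 3.45% of all promoters, and TATAAA in 2 of the 9, against 11.5%. In the TBXT bases shown above TATAAA lies on the opposite strand, read there as tttata. TBX2, TBX3 and TBX15 had no entry.

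Each pair had a CHiCAGO interaction score in each profile, which measures how far the reads joining 2 fragments exceed a model of random contact. Scores of 5 or more count as calls, and every listed pair reached 5 in at least 1 profile. A pair called in 1 profile is therefore bound to differ between profiles, and such pairs are given as a description. The 119 pairs gave 55 calls in UNC6852, 52 in UNC1999 and 50 in DMSO, or 46.2%, 43.7% and 42.0% of the pairs. Over all cis pairs the shares were 46.1%, 42.3% and 42.4%, so the number of called contacts of the T-box genes together was near the background in all 3 profiles.

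EOMES held 69 of the 119 pairs, and TBX15 held 22. TBX3 had 8, TBXT and TBX20 had 7 each, TBX1 had 4 and TBX5 had 2. By number of cis pairs EOMES ranked at place 31 of 9948 genes with any pair. Calls at EOMES numbered 42 in UNC6852, 31 in UNC1999 and 33 in DMSO. The other 6 genes together had 13, 21 and 17 calls in the same order.

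**Figure D1:**
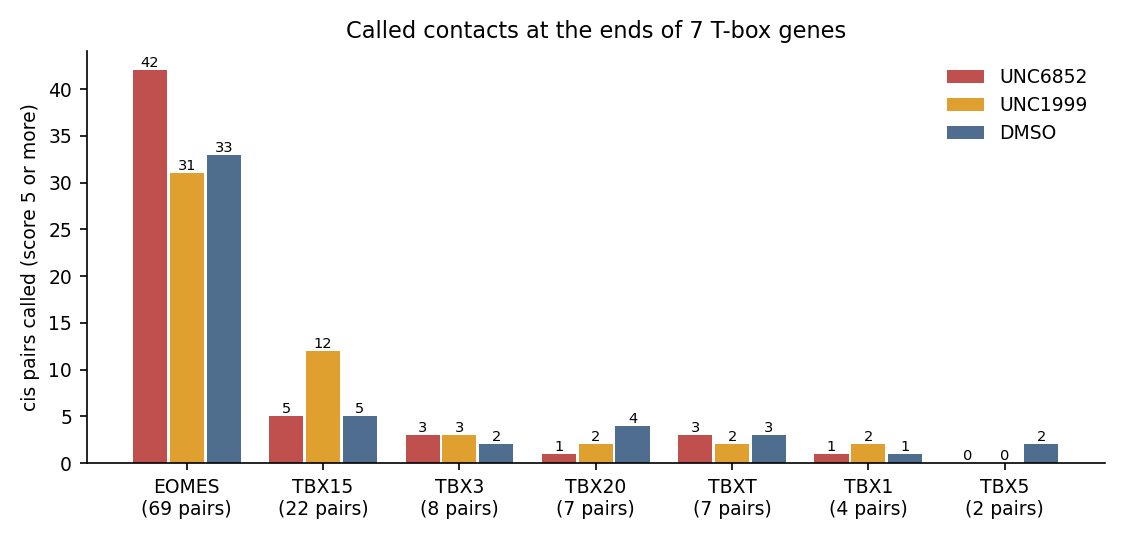
Bars give the number of cis pairs with a score of 5 or more at each of 7 T-box genes in the UNC6852, UNC1999 and DMSO profiles (y axis, counts), with the number of listed pairs under each gene name. EOMES has most of the calls in each profile, and TBX15 has 12 calls in UNC1999 against 5 in DMSO.

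The contacts of EOMES and those of the other members differed in how often they recurred. A core of 12 pairs, all of them at 2 of the 4 captured fragments of EOMES, was called in all 3 profiles. That is 17.4% of the EOMES pairs (exact 95% interval 9.32 to 28.4), against 8.33% of all cis pairs. Of the 50 pairs of the other 6 genes, 49 were called in 1 profile and 1, at TBXT, in 2. Of the 33 EOMES calls of DMSO, 17 were also called in UNC6852, which is 51.5% (33.5 to 69.2), and 16 in UNC1999, which is 48.5% (30.8 to 66.5). The background shares were 31.4% and 29.3%. Of the 17 DMSO calls of the other members, 0 were called in UNC6852 and 0 in UNC1999, with an upper limit of 19.5% by the exact interval. At 100 to 500 kb they numbered 7, with an upper limit of 41.0%, against 34.3% and 32.0% over all cis pairs of that distance. At 0.5 to 2 Mb they numbered 6, with an upper limit of 45.9%, against 19.9% and 18.0%. The background by distance thus lay within the intervals. These intervals cover counting error only and treat pairs as independent, although pairs of neighbouring fragments are not.

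The far ends of the EOMES pairs lay mostly in 2 groups, 1 on each side of the gene, with few listed contacts nearer to it. Grouping them by the gene they overlapped was done after the values were seen. One group of 27 pairs ended in NEK10, a kinase gene, 350 to 580 kb towards lower coordinates. The other group of 36 pairs ended between CMC1, a mitochondrial assembly factor gene, AZI2, a gene of the TBK1 signalling pathway, and ZCWPW2, 530 to 632 kb towards higher coordinates. The 6 remaining pairs ended elsewhere, 171 to 490 kb away. In the NEK10 group 16 pairs were called in UNC6852, 9 in UNC1999 and 16 in DMSO. In the CMC1 to ZCWPW2 group 24 were called in UNC6852, 19 in UNC1999 and 16 in DMSO, and 9 of the 12 pairs called in all 3 profiles belonged to it.

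**Figure D2:**
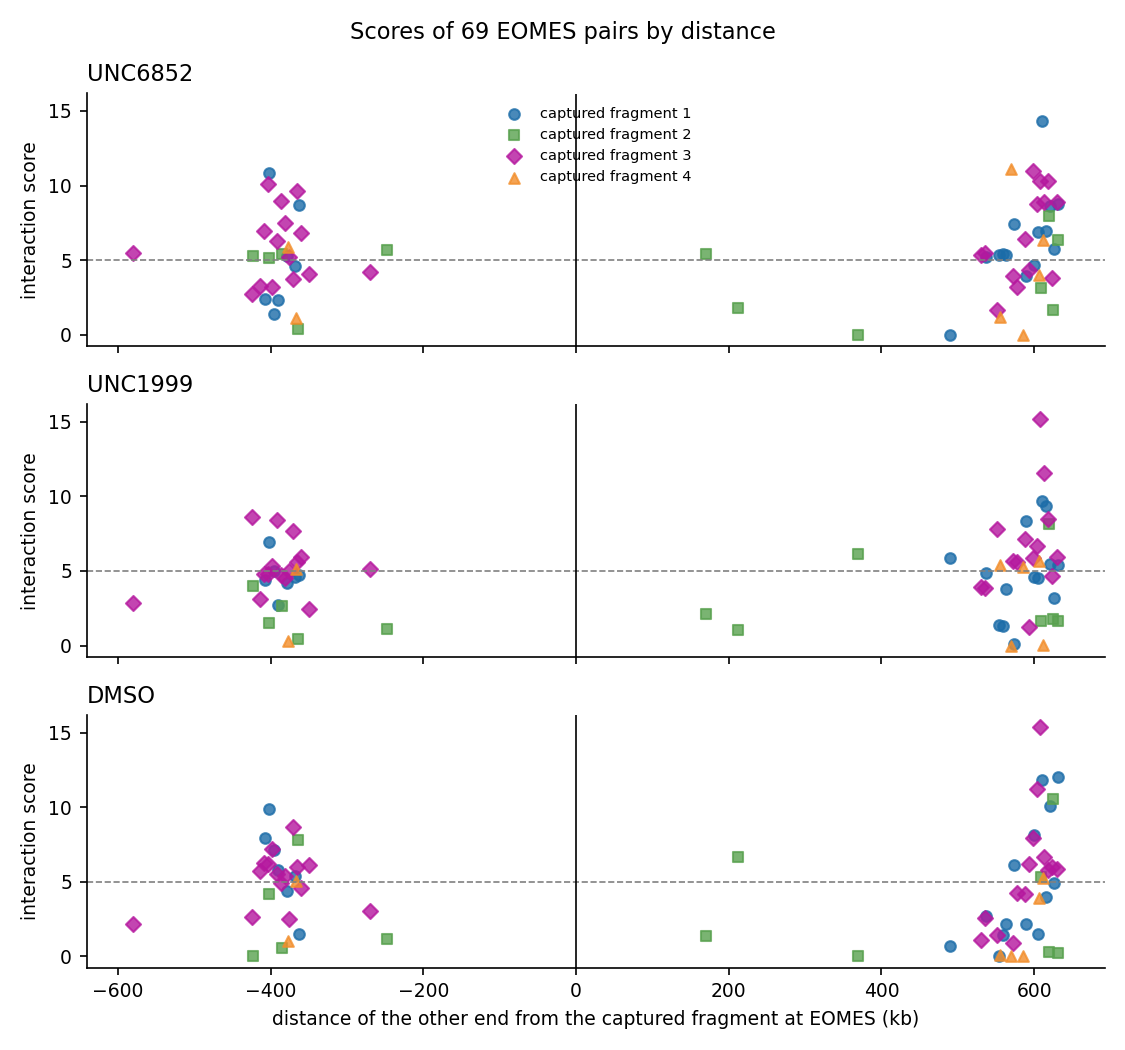
Each point is 1 of 69 EOMES pairs, with the signed distance of its other end from the captured fragment (x axis, kb) and its interaction score (y axis) in the UNC6852, UNC1999 and DMSO profiles. Colours mark the 4 captured fragments, numbered from low to high coordinate, and the dashed line is the call threshold of 5. The points gather about 400 kb on the low side and about 600 kb on the high side in each profile.

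The strongest EOMES contact joined the captured fragment chr3:27716009-27717320, which starts 56 bp inside the low-coordinate end of the gene, with chr3:28322321-28327341, a bin that holds the last bases of CMC1 and part of AZI2. Its score was 10.3 in UNC6852, 15.2 in UNC1999 and 15.4 in DMSO. The same bin scored 14.3, 9.68 and 11.8 with the neighbouring fragment chr3:27714224-27714989. The third contact by mean score led from that fragment into NEK10, at chr3:27310151-27315546, with 10.8, 6.92 and 9.89. All 3 were called in every profile, and none differed by 1 or more on the asinh scale, the scale used for differences because it behaves like a logarithm for high scores and stays defined at 0.

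EOMES is transcribed towards lower coordinates, so 3 of its 4 captured fragments lie at the 3′ end and 1, chr3:27723524-27723910, lies before the start. The fragment chr3:27716009-27717320 had 29 pairs, of which 8 were called in all 3 profiles. Its other ends formed an unbroken run of 11 bins in NEK10 and another of 9 bins from CMC1 to ZCWPW2, bins being about 5266 bp long. The fragment before the start had 7 pairs, 2 in NEK10 and 5 in the other group, with 3 calls in UNC6852, 4 in UNC1999 and 2 in DMSO. Both ends of the gene therefore listed contacts with the same 2 regions. The pairs called in all 3 profiles came from 2 fragments at the 3′ end, 8 from chr3:27716009-27717320 and 4 from chr3:27714224-27714989. The fragment between them, chr3:27714990-27715897, had 0, and so did the fragment before the start.

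Most EOMES calls had another called EOMES pair close by, with its far end in the same bin or at most 2 fragments away. This held for 38 of 42 calls in UNC6852, 27 of 31 in UNC1999 and 31 of 33 in DMSO. At the other members the counts were 2 of 13, 5 of 21 and 0 of 17. Such counts grow with the number of listed pairs, which was 69 at EOMES and 2 to 22 at each other member. No share over all genes was taken. The 12 further captured fragments within 50 kb of EOMES, which the gene-end rule did not take, listed 133 pairs, of which 39 ended in the NEK10 region and 66 in the CMC1 to ZCWPW2 region. Calls on these 133 pairs numbered 64 in UNC6852, 56 in UNC1999 and 57 in DMSO, and 18 of the 57 DMSO calls, or 31.6% (19.9 to 45.2), recurred in each treated profile. Over all cis pairs of any distance the shares were 31.4% and 29.3%, and at the gene ends 51.5% and 48.5%. In the CMC1 to ZCWPW2 region the 12 further fragments kept 12 of 31 DMSO calls (38.7%) in each treated profile. Over all cis pairs of 0.5 to 2 Mb the shares were 19.9% and 18.0%. In the NEK10 region these fragments kept 5 of 16 in UNC6852 and 6 of 16 in UNC1999. The bins of the 2 regions were taken from pairs of all captured fragments within 50 kb of EOMES, those at the gene ends included. Of the 192 cis pairs of any captured fragment that ended in these bins, 168 (87.5%) came from those same fragments. The choice of bins itself put these 168 there, so the share does not measure a preference for EOMES.

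Other genes' ends were reached by 11 of the 119 pairs, 9 of them at EOMES and 2 at TBXT. Of these, 5 were called in at least 2 profiles, and each of these in all 3. Besides both contacts with the CMC1 end given above, they were a contact of chr3:27716009-27717320 with the AZI2 end at chr3:28317078-28322320, and contacts of both strong fragments with chr3:28343351-28349442, where AZI2 and ZCWPW2 start in opposite directions. The AZI2 end scored 8.78 in UNC6852, 6.67 in UNC1999 and 11.2 in DMSO. The shared start of AZI2 and ZCWPW2 scored 8.76, 5.41 and 12.0 with chr3:27714224-27714989 and 8.90, 5.93 and 5.84 with chr3:27716009-27717320. No pair joined 2 members: TBX3 and TBX5, 262 kb apart on chromosome 12, and TBX2 and TBX4, 43.0 kb apart on chromosome 17, had 0 pairs between their surroundings.

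The recurrence of EOMES contacts was then set against that of all pairs of like distance. Of the EOMES calls of DMSO at 0.5 to 2 Mb, 11 of 16 were also called in UNC6852, or 68.8% (41.3 to 89.0), and 9 of 16 in UNC1999, or 56.2% (29.9 to 80.2). Over all cis pairs of that distance the shares were 19.9% and 18.0%. At 100 to 500 kb, 6 of 17 (35.3%) and 7 of 17 (41.2%) recurred, against 34.3% and 32.0% over all cis pairs. The larger difference from the background stood in the farther class, which holds the CMC1 to ZCWPW2 contacts.

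Within EOMES, single contacts moved in both directions. Scores were higher in UNC6852 than in DMSO for 45 pairs, lower for 22 and equal for 2, a share of 67.2% higher among the unequal ones (54.6 to 78.2), against 52.9% over all cis pairs. In UNC1999 33 were higher and 35 lower. By the size rule of 1 on the asinh scale, 14 pairs rose and 6 fell in UNC6852, and 16 rose and 7 fell in UNC1999. Over all cis pairs 20.2% rose and 17.1% fell in UNC6852, and 18.6% rose and 18.7% fell in UNC1999. The share of EOMES pairs that fell, 8.70% in UNC6852 and 10.1% in UNC1999, was below the background in both.

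The largest rise at EOMES in UNC6852 was a contact of the start-side fragment with chr3:28291212-28296237 in CMC1, which scored 11.1 in UNC6852, 0 in UNC1999 and 0 in DMSO. The largest rise in UNC1999 joined chr3:27714990-27715897 with chr3:28332391-28337491 in AZI2, at 7.95 in UNC6852, 8.17 in UNC1999 and 0.274 in DMSO. The largest fall in UNC6852 was between the same captured fragment and chr3:27348569-27353953 in NEK10, at 0.419, 0.449 and 7.78. The largest fall in UNC1999 joined chr3:27714224-27714989 with chr3:28285830-28291211 in CMC1, at 7.44 in UNC6852, 0.0926 in UNC1999 and 6.11 in DMSO. All 4 lay within the same 2 regions as the recurrent contacts.

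TBXT had 1 captured fragment next to its start, chr6:166169345-166169878, with 4 pairs, and 3 more pairs in which a distant captured fragment reached the 3′ end of the gene. All 7 pairs spanned 3.44 to 170 kb and joined captured fragments to the gene. The highest mean score belonged to a contact of a fragment 106 kb away with the 3′ end, at 5.51 in UNC6852, 4.26 in UNC1999 and 4.56 in DMSO. A contact of 3.44 kb within the start region scored 3.30, 4.48 and 5.22. Both were called in 1 profile and stayed between 3.30 and 5.51 in the others as well.

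At about 98 kb from the TBXT start, adjacent captured fragments had opposite values. The fragment chr6:166267277-166268024 scored 5.23 in UNC6852, 5.58 in UNC1999 and 0 in DMSO, the largest rise at TBXT for both compounds and its only pair called in more than 1 profile. The next fragment, chr6:166268025-166268963, scored 1.90, 1.11 and 6.32, the largest fall in UNC1999. The largest fall in UNC6852 joined the 3′ end with a fragment in SFT2D1, 170 kb away, at 0.426 in UNC6852, 0.827 in UNC1999 and 5.03 in DMSO. The end of PRR18 touched the TBXT start at 5.22, 1.32 and 2.15, and the TBXT 3′ end at 2.13, 5.31 and 2.01, so both ends of TBXT listed PRR18, each called in 1 treated profile.

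TBX1 had 4 pairs from the fragment at its start. A captured fragment 134 kb away in TXNRD2, a thioredoxin reductase gene, scored 0 in UNC6852, 6.52 in UNC1999 and 0.711 in DMSO. It was called in UNC1999 alone. A bin 451 kb away scored 5.63, 0.718 and 2.34. A contact over 26344 kb scored 0 in UNC6852, 0 in UNC1999 and 7.68 in DMSO, and without this pair, the only one over 2 Mb, the mean asinh difference of TBX1 in UNC6852 was 0.0502 instead of -0.646, and that in UNC1999 was 1.01 instead of 0.0708.

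TBX20 had 2 captured fragments before its start. The smaller, chr7:35254428-35254606, is 179 bp long and had 4 pairs, all called in DMSO alone. They scored 0 in UNC6852, 0 in UNC1999 and 14.5 in DMSO over 31974 kb; 0, 0 and 8.84 with SEPTIN7 at 578 kb; 2.69, 1.80 and 8.06 at 287 kb; and 2.01, 0 and 5.02 at 855 kb. The neighbouring fragment, chr7:35254647-35255736, had 1 pair called in UNC6852 alone, at 5.14, 0.507 and 2.04, and 1 called in UNC1999 alone, at 0, 5.85 and 0. A captured fragment 334 kb away reached the 3′ end of TBX20 at 3.35 in UNC6852, 5.74 in UNC1999 and 3.86 in DMSO. The fall at TBX20 thus stood mainly on 1 short fragment. With fragments weighted equally the mean asinh difference was -0.581 instead of -1.06 in UNC6852, and -0.455 instead of -1.16 in UNC1999.

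Other captured fragments around TBX20 were read as well. This wider view was chosen after the values were seen. The 5 captured fragments 12.7 to 16.9 kb beyond the 3′ end listed 107 pairs, of which 69 were called in UNC6852, 48 in UNC1999 and 62 in DMSO, and 22 in all 3 profiles. Of their 62 DMSO calls, 36 were also called in UNC6852, or 58.1% (44.8 to 70.5), and 26 in UNC1999, or 41.9% (29.5 to 55.2). The background shares were 31.4% and 29.3%. Their mean asinh difference from DMSO was 0.0405 in UNC6852 and -0.150 in UNC1999. The 12 other fragments within 50 kb, leaving out those at a gene end, kept 3 of 18 DMSO calls in UNC6852, or 16.7% (3.58 to 41.4), and 2 of 18 in UNC1999, or 11.1% (1.38 to 34.7), and 1 of their 47 pairs was called in all 3 profiles. Their mean differences were 0.0212 and -0.0688. Far ends of the pairs within 50 kb of TBX20 concentrated in chr7:35504776-35555058, where no protein-coding gene is annotated, with 66 pairs from 19 captured fragments and 17 called in all 3 profiles. The TBX20 gene ends took part in that region with 3 pairs.

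**Figure D3:**
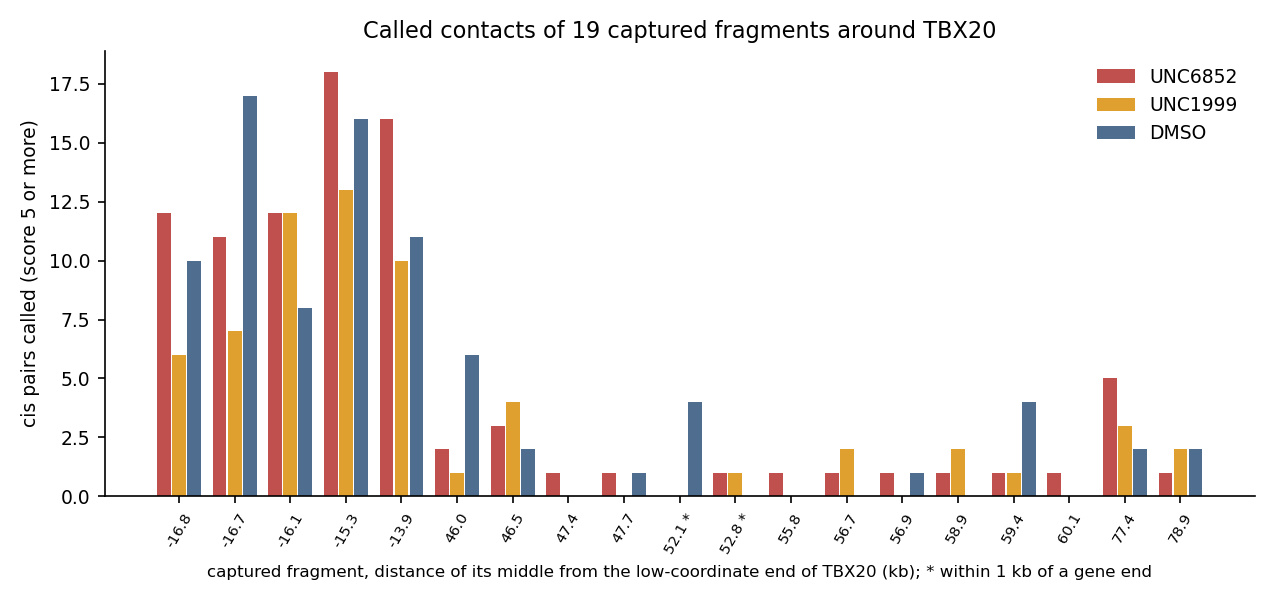
Bars give the number of called cis pairs (y axis, counts) of each of 19 captured fragments within 50 kb of TBX20 in the UNC6852, UNC1999 and DMSO profiles, ordered by distance from the low-coordinate end of the gene (x axis labels, kb), with asterisks at the fragments next to a gene end. The 5 fragments beyond the 3′ end hold 69, 48 and 62 calls, and the marked fragments hold 1, 1 and 4.

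TBX5 had 1 captured fragment next to its start, chr12:114408831-114409727, with 2 pairs. They scored 0 in UNC6852, 0 in UNC1999 and 5.68 in DMSO at 625 kb, and 0.267, 0 and 5.08 at 247 kb. Both were called in DMSO alone and stood just above the threshold there.

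TBX3 had 8 pairs from 2 captured fragments, 1 at each end of the gene, and all of them ran towards higher coordinates, away from TBX5, over 485 to 1116 kb. No other gene end was reached. Calls numbered 3 in UNC6852, 3 in UNC1999 and 2 in DMSO, and no pair was called in more than 1 profile. The highest mean score was at 796 kb, with 6.33 in UNC6852, 3.45 in UNC1999 and 0 in DMSO, which was the largest rise in UNC6852. The largest rise in UNC1999 was at 759 kb, with 0.966, 5.05 and 0. The largest fall for both compounds was at 1116 kb, with 0, 0.776 and 6.68. A contact at 485 kb scored 2.01, 1.97 and 5.15. Adjacent bins at 1080 and 1085 kb scored 0, 5.66 and 0.898, and 5.06, 0 and 0.896, so neighbouring bins were called in different profiles.

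TBX15 had 22 pairs from 4 captured fragments at its high-coordinate end. Of these 19 ran towards lower coordinates, 3 of them into SPAG17, a gene of the ciliary axoneme. There were 5 pairs called in UNC6852, 12 in UNC1999 and 5 in DMSO, each in 1 profile. By the size rule 14 of the 22 pairs rose and 6 fell in UNC1999, and 6 rose and 4 fell in UNC6852. Over all cis pairs of 0.5 to 2 Mb, the distance of 12 of the 22 pairs, 27.3% rose and 26.7% fell in UNC1999 and 30.0% rose and 24.7% fell in UNC6852, so the TBX15 counts in UNC6852 were near the background. In UNC1999, 4 of the 12 called contacts lay at 692 to 757 kb from 1 fragment, chr1:118988679-118989242, with scores of 5.45 to 8.20 in UNC1999, 0 to 3.0 in UNC6852 and 0 to 1.23 in DMSO. The bin chr1:118234809-118240339 was called in UNC1999 from that fragment, at 0.213, 5.79 and 1.23, and from its neighbour chr1:118989275-118989493, at 0, 6.17 and 0.

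The 3 TBX15 contacts with the highest mean scores were at 425 kb, with 4.08 in UNC6852, 1.51 in UNC1999 and 5.33 in DMSO, at 698 kb, with 3.0, 5.45 and 1.19, and at 181 kb, with 5.04, 2.85 and 1.67. All of them stood near the threshold. The highest TBX15 score was 9.16 in UNC1999 over 128023 kb, against 0 in UNC6852 and 0 in DMSO, and this was the largest rise in UNC1999. The fragment that made it also held the contacts over 45531 and 48719 kb, which were called in UNC1999 alone. The largest rise in UNC6852 was at 784 kb, with 5.21, 1.33 and 0. The largest fall for both compounds was at 895 kb in SPAG17, with 0, 0 and 7.41. None of the 5 DMSO calls of TBX15 was called in a treated profile.

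**Figure D4:**
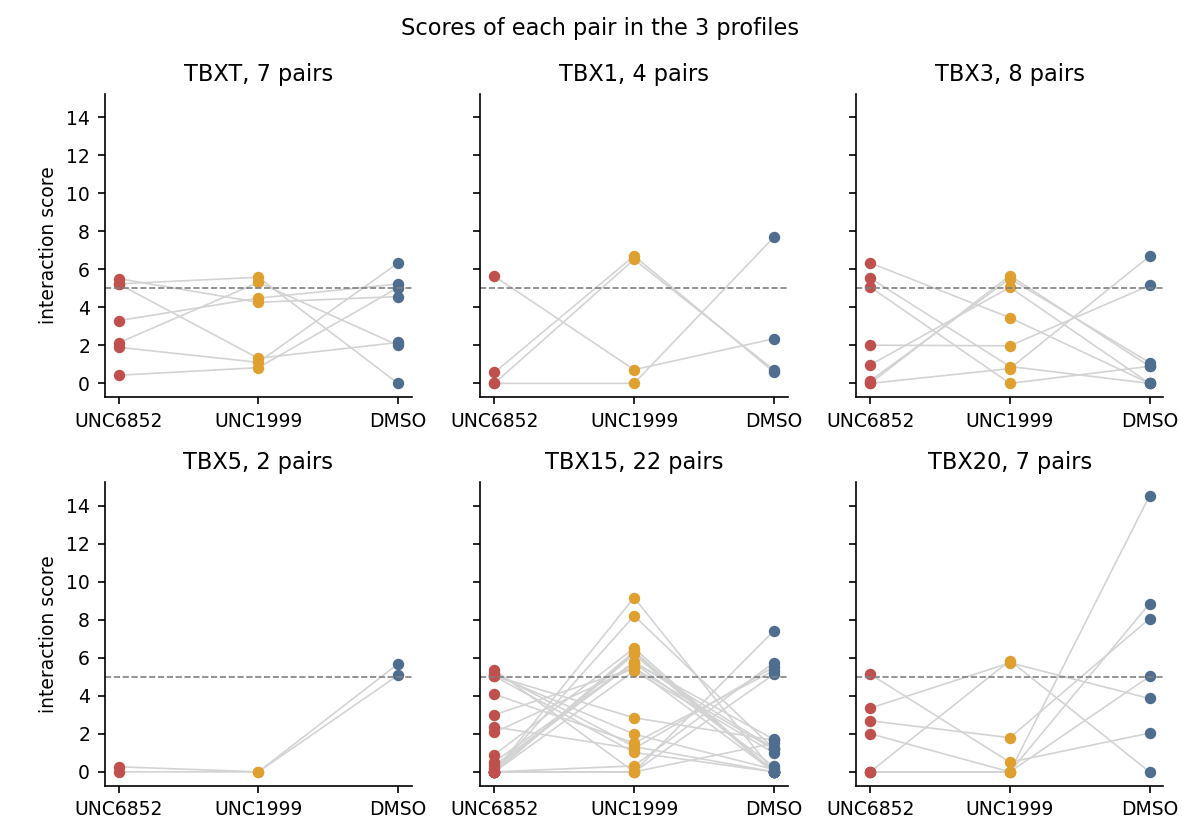
Points give the interaction score (y axis) of each cis pair of TBXT, TBX1, TBX3, TBX5, TBX15 and TBX20 in the UNC6852, UNC1999 and DMSO profiles (x axis), and grey lines join the values of 1 pair. The dashed line is the call threshold of 5. Of the 50 pairs, 49 cross it in 1 profile, and TBX20 has the highest score, 14.5 in DMSO.

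Gene means were taken over the asinh scores of a gene's pairs, for genes with at least 3 pairs, and a mean difference of 0.5 or more counted as a change. The mean differences from DMSO were 0.305 in UNC6852 and 0.139 in UNC1999 for EOMES, and -0.00795 and -0.0636 for TBXT. They were 0.277 and 0.570 for TBX3, 0.00655 and 0.805 for TBX15, -0.646 and 0.0708 for TBX1, and -1.06 and -1.16 for TBX20. TBX5, with 2 pairs, was below the minimum and had -2.25 and -2.38. In UNC6852 0 of the 6 genes rose and 2 fell, TBX1 and TBX20, and in UNC1999 2 rose, TBX3 and TBX15, and 1 fell, TBX20. The TBX3 rise was under 0.5 with quantile-normalized scores (0.280) and with means over baits (0.425). It was also under 0.5 with the natural logarithm of score + 1 (0.436 on that scale). With quantile-normalized scores EOMES had 0.0970 in UNC6852 and -0.0937 in UNC1999, so its sign in UNC1999 was not kept. That normalization moved the median of all genes in UNC1999 from -0.00765 to -0.231, and EOMES and TBX3 stood above the median with either scaling. Of 4979 genes with at least 3 pairs, 18.3% rose and 13.6% fell in UNC6852, and 15.7% rose and 16.3% fell in UNC1999. For TBX20, 3.03% of genes had a lower value in UNC6852 and 2.75% in UNC1999.

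**Figure D5:**
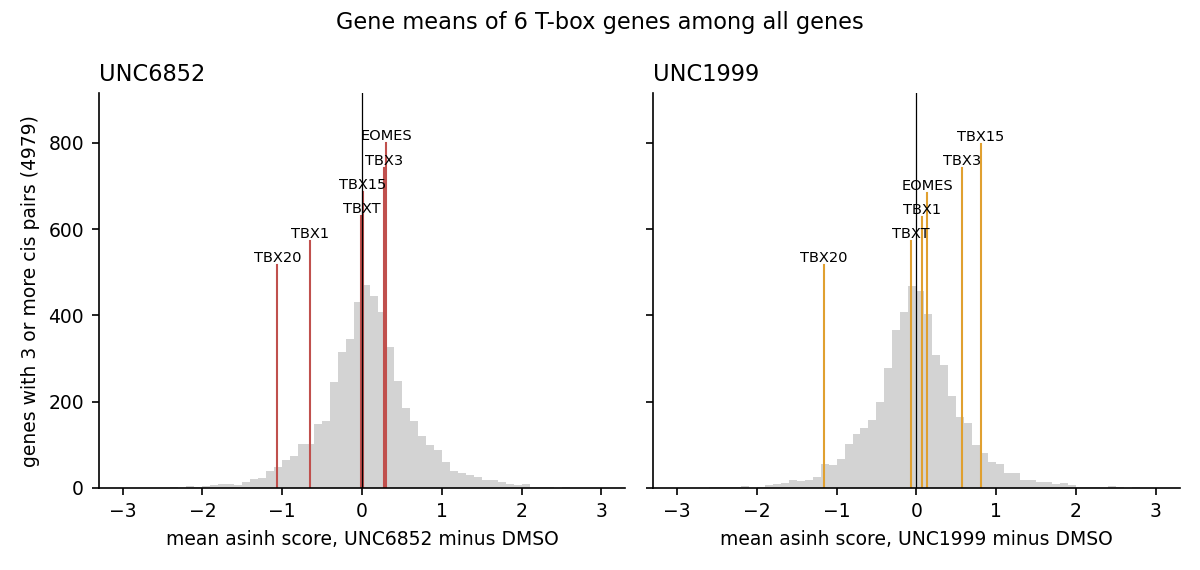
Grey histograms show the mean asinh difference from DMSO (x axis) of 4979 genes with 3 or more cis pairs (y axis, number of genes), for UNC6852 on the left and UNC1999 on the right, and coloured lines mark 6 T-box genes. TBX20 lies in the low tail of both, at -1.06 and -1.16, and EOMES and TBXT lie near the middle. Line heights only separate the names.

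Related regulators were read from lists of genes that share no member with the 10. Among 7 other T-box genes, 3 had at least 3 pairs. MGA, a repressor of germ-cell genes in stem cells, rose in both comparisons, by 1.11 in UNC6852 and 1.11 in UNC1999, TBR1, a neuronal factor, fell by 0.876 in UNC1999, and TBX21, an immune factor, had 0.407 and -0.213. Among 18 mesoderm genes 0 rose and 3 fell in UNC6852, with a median of -0.00279, and 2 rose and 1 fell in UNC1999, with a median of 0.0425. Over all genes 18.3% rose and 13.6% fell in UNC6852, and 15.7% rose and 16.3% fell in UNC1999. WNT3A, a WNT ligand of the streak, had -0.658 in UNC6852 and -0.442 in UNC1999. PCDH8, a protocadherin of the paraxial mesoderm, had 0.408 and 1.08. MESP2, the lowest in UNC1999 among the mesoderm genes with at least 5 pairs, had -0.106 in UNC6852 and -0.941 in UNC1999.

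Among 20 limb genes 7 rose and 0 fell in UNC6852, and 5 rose and 2 fell in UNC1999, with medians of 0.279 and 0.0852, against 0.0687 and -0.00765 over all genes. The background for these counts, and for the heart and pharynx counts below, was 18.3% up and 13.6% down in UNC6852. In UNC1999 it was 15.7% up and 16.3% down. PITX1, the hindlimb factor, had 0.669 in UNC6852 and 0.863 in UNC1999, with 11 calls in UNC6852, 11 in UNC1999 and 4 in DMSO. EN1, a factor of the ventral limb ectoderm, had 0.735 and 1.35, and PRRX1, a factor of limb mesenchyme, had 0.742 and 0.837. GLI3, a mediator of hedgehog signalling, had -0.264 and -0.760. Among 12 heart and pharynx genes 2 rose and 1 fell in UNC6852, and 0 rose and 2 fell in UNC1999, with medians of -0.0438 and 0.0396. MEF2C, a factor of heart muscle, had 0.500 and 0.210 with 8 of 24 pairs called in all 3 profiles, and GJA5, a connexin of the conduction system, had -0.352 and -0.933.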

How the data were processed

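Poised-enhancer capture Hi-C was done on HNES1 cells in 3 groups of 15 libraries. The deposited table gives CHiCAGO scores for pairs of fragments, 1 column per group pooled over libraries per the labels. The genome build is GRCh38, per the submitters' processing notes. The aligner, the caller's version and its settings are not given in the sources used here. Scores are never negative, every pair reaches 5 in at least 1 column, and read depth is unknown, so no read-based interval is given. Single libraries were not analysed here.

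Pairs were assigned to a gene when either fragment came within 1000 bp of an end in RefSeq GRCh38.p14. Uncaptured other ends are bins with a median of 5266 bp, and captured fragments have a median of 625 bp. Differences were taken on the asinh scale, with no folds since many scores are 0. A pair changed at 1 or more and a gene, with at least 3 pairs, at 0.5 or more. Intervals are exact (Clopper-Pearson) at 95%. With 1 pooled column per group there are no p-values. Pairs described one by one were, for each gene, the 3 with the highest mean score, the largest rise and fall per compound, and those with another gene's end called in at least 2 profiles; further pairs named were chosen after their values were seen. One contact of TBX1 is not reported here. For the gene lists, the 2 lowest and 2 highest genes per compound with at least 5 pairs qualified for naming. The members, lists and rules were chosen with earlier results of these data known. Alternatives covered the score threshold, the distance from a gene end, distance limits, quantile normalization and the natural logarithm of score + 1. They also covered the side of the gene, merged bins, pairs counted once, means over baits, and, added later, 50 kb windows and the omission of EOMES. The computation of gene means was run on simulated scores with planted shifts, which checks the code and not the gene values reported. Python 3.11.15 was used, with pandas 2.3.3, numpy 2.4.6, matplotlib 3.10.9 and scipy 1.17.1.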

Additional observations from a re-analysis of the deposited data

Results flagged for a closer look

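The captured fragments at the T-box gene ends also listed 111 pairs with other chromosomes, which no comparison above used. Of these, 41 were called in UNC6852 and 39 in UNC1999, against 31 in DMSO, so both treated profiles had more such calls than the control profile. The ratios to DMSO were 1.32 and 1.26, against 1.15 and 1.21 over all pairs between chromosomes. No such pair was called in more than 1 profile, which is rare over all pairs between chromosomes too, at 942 of 281836. TBX15 held 46 of the 111 pairs, with 14 calls in UNC6852, 21 in UNC1999 and 11 in DMSO, and EOMES held 29, with 16, 6 and 7.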

How the results depend on the processing

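No paired analysis was possible because each profile is a single column pooled over the biological replicates, which the 3 groups share by number. The main counts were 55 calls in UNC6852, 52 in UNC1999 and 50 in DMSO, with 34.0% of DMSO calls kept in UNC6852 and 32.0% in UNC1999, and 57.1% and 50.8% of pairs higher than in DMSO. Counts of calls were 18, 14 and 19 at a threshold of 7, and 7, 2 and 7 at 10. They were 5, 9 and 3 with gene ends within 0 bp, 148, 143 and 139 within 5000 bp, and 374, 327 and 354 in 50 kb windows. They were 1, 2 and 1 where the gene was the other end, 30, 32 and 27 with neighbouring bins merged, and 13, 21 and 17 without EOMES. The kept share in UNC1999 was 15.8% at a threshold of 7 and 14.3% at 10. Both kept shares were 0% within 0 bp, a setting that left no EOMES pair and 3 DMSO calls. They were also 0% where the gene was the other end, with 1 DMSO call, and without EOMES. Both were 19.4% within 5000 bp. In 50 kb windows they were 23.45% in UNC6852 and 20.9% in UNC1999, against 31.4% and 29.3% over all cis pairs. The share of pairs higher in UNC6852 was 42.9% within 0 bp, 69.6% at a mean score of at least 5, and 42.2% without EOMES. In UNC1999 it was 76.5% within 0 bp and 34.8% at a mean score of at least 5.

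Gene differences past 0.5 that turned round were TBX20 in UNC1999, at 0.388 within 0 bp and where the gene was the other end, TBX3 in UNC1999, at -0.0766 within 5000 bp and -0.0593 in 50 kb windows, and TBX1 in UNC6852, at 0.0502 for pairs of up to 2 Mb and 0.00279 in 50 kb windows. TBX5 turned to 0.0564 in UNC6852 and 0.0976 in UNC1999 in 50 kb windows. These settings add pairs to those of the main rule or keep only some of them. For TBX20 both settings left the same 1 pair of the main rule, at 334 kb. Of the remaining gene values, 13 moved by more than 0.5 and 131 did not. Quantile normalization shifted the median of all genes to -0.142 in UNC6852 and -0.231 in UNC1999, against 0.0687 and -0.00765 with the scores as deposited. Under it EOMES had 0.0970 and -0.0937, TBX20 had -1.21 and -1.30, TBX3 in UNC1999 had 0.280 and TBX15 in UNC1999 had 0.540. TBX15 in UNC1999 ranged over its 11 alternatives between 0.378, in 50 kb windows and under 0.5, and 1.265, within 0 bp, and was 0.512 for pairs of up to 2 Mb. TBX20 in UNC6852 was -0.136 within 0 bp, -0.147 within 5000 bp and -0.0107 in 50 kb windows, and in UNC1999 -0.184 within 5000 bp and -0.180 in 50 kb windows, all short of the size rule. TBX1 in UNC1999 was 1.01 for pairs of up to 2 Mb. EOMES had 0.0912 and -0.0173 in 50 kb windows. Depth is unknown, and with few pairs per gene 1 pair can set a gene's mean.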

Other observations

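Fragments within 50 kb of a gene give a view of the genes that have no captured fragment at their ends. These windows were chosen after the values were seen. TBX2 had 23 such pairs with 8 calls in UNC6852, 9 in UNC1999 and 8 in DMSO. TBX4 had 15, with 5, 5 and 6, and its window shares pairs with that of TBX2. TBX18 had 23, with 8, 7 and 8. These calls made up 30.4 to 40.0% of the pairs of a window. Over all cis pairs 46.1% were called in UNC6852, 42.3% in UNC1999 and 42.4% in DMSO. No pair of these 3 windows was called in all 3 profiles, against 8.33% of all cis pairs, and with 15 to 23 pairs a count of 0 says little.

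Around TBX3 there were 144 pairs with 54 calls in UNC6852, 44 in UNC1999 and 48 in DMSO, and 0 called in all 3 profiles. Their median distance was 1086 kb, and over all cis pairs of 0.5 to 2 Mb 4.13% were called in all 3. The densest 50 kb step, chr12:113463767-113482611, lies 1204 kb away and overlaps LHX5, a LIM homeobox gene of the brain, with 32 pairs from 20 captured fragments. Calls there numbered 13, 8 and 12. A pair counted around TBX3 when either fragment lay in the window, and 35 of the 59 captured fragments of these pairs lay in it. The pair with the highest mean score was read from a captured fragment in the LHX5 step, chr12:113474978-113475949. The counts were not corrected for capture at LHX5 itself. Around TBX5 there were 87 pairs, with 28 calls in UNC6852, 34 in UNC1999 and 28 in DMSO, 0 in all 3 profiles. Their median distance was 398 kb, and over all cis pairs of 100 to 500 kb 9.42% were called in all 3. Around TBXT there were 57 pairs, with 19 calls in UNC6852, 15 in UNC1999 and 30 in DMSO, of which 3 (10.0%) recurred in UNC6852 and 2 (6.67%) in UNC1999, against 31.4% and 29.3% over all cis pairs. Around TBX15 there were 117 pairs, with 41 calls in UNC6852, 51 in UNC1999 and 34 in DMSO. There 53 pairs (45.3%) rose and 30 (25.6%) fell in UNC1999 by the size rule, against 27.3% and 26.7% over all cis pairs of 0.5 to 2 Mb and 18.6% and 18.7% over all cis pairs.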
